A study of Mus musculus with 3 samples.

Results

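The 10 genes described here encode cytoplasmic intermediate filament proteins of mesenchyme (Vim, Des, Nes, Synm), glia and neurons (Gfap, Nefm) and simple epithelium (Krt7, Krt8, Krt18, Krt19). They were taken by name from a table of 21782 genes, and all 10 were found in it. The samples were WT mouse embryo fibroblasts (MEFs) obtained at embryonic day 12.5, grown asynchronously in medium with 20% serum and used without any treatment that the labels name. PolyA-selected RNA of 3 clones was sequenced with 86-nt single-end reads, 1 library per clone, and the mouse strain is not given. All 3 libraries belong to 1 condition, so the values below describe levels and their spread between clones, and no conditions were compared. Nothing states whether the clones came from separate embryos.

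Intermediate filaments are rope-like polymers that give cells mechanical strength, and the protein they are built from changes with cell type. Vimentin and desmin, of type III, can form filaments alone, whereas nestin and synemin, of type IV, build into filaments made by a type III partner. Keratins form filaments only as pairs of a type I chain (Krt18, Krt19) and a type II chain (Krt7, Krt8). Vimentin is the classical filament of fibroblasts, desmin that of muscle, GFAP that of astrocytes, NEFM one of the neurofilament chains, and keratins 8 and 18 the first pair made by embryonic epithelia.

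In these fibroblasts Vim stood far above the other members, Nes came second, and Des and Krt19 followed. Counts per 1000000 counts (CPM, with libraries scaled by TMM factors from edgeR) were 4002 ± 202 for Vim, 753 ± 166 for Nes, 66.4 ± 33.0 for Des and 25.8 ± 10.3 for Krt19 (SD, n = 3 clones). Synm, Krt7 and Krt18 were low, Nefm and Krt8 lay around or under 1 CPM, and Gfap had at most 1 count in any clone. With a threshold of 1 CPM in every clone, 7 of the 10 genes were expressed, against 52.2% of all genes in the table. The members were chosen for their known place in mesenchyme or epithelium, so this share says nothing about intermediate filament genes in general. Together the 10 genes took 0.469%, 0.482% and 0.508% of all counts in clones 1, 2 and 3, and Vim alone took 82.3% ± 3.82 (SD, n = 3) of the members' counts.

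**Figure D1:**
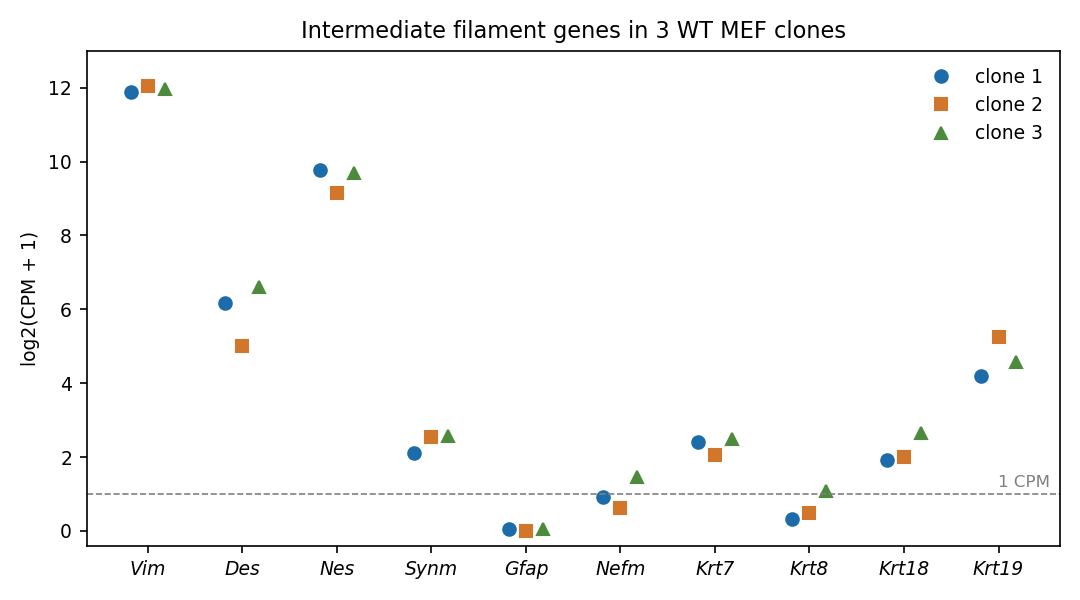
Level of each of the 10 genes as log2(CPM + 1) in clones 1, 2 and 3, with a dashed line at 1 CPM. Vim lies close to 12 in every clone, Gfap at 0 or just above it, and the clones stand furthest apart for Des, from 31.1 to 96.5 CPM.

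Some sequences bear on how these counts can be read, and those of Krt8 matter most. Krt8 (chr15:101996698-102004482, minus strand, GRCm38) has a processed pseudogene, Krt8-ps (chr7:23357125-23358069, plus strand), in the GENCODE M21 annotation. Of the 1873 stretches of 86 nt in the Krt8 transcript, 764 (40.8%) matched a transcript of another gene with at most 2 mismatches, the number that the authors' alignment allowed. Krt8-ps accounted for 745 of them, of which 370 were identical to it. The lines below show a coding stretch of Krt8 (exon 1 of 9, chr15:102004072-102004157, minus strand) and its match in Krt8-ps (chr7:23357207-23357292, plus strand), each in 5′ to 3′ direction with the bases that differ in capitals.
Krt8: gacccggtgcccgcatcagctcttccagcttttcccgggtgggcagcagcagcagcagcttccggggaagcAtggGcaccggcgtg
Krt8-ps: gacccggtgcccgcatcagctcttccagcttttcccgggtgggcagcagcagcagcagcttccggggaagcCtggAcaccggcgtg
A read from this stretch matches its own gene exactly and the other with 2 mismatches, which the alignment allowed. Reads from the 370 identical stretches match both equally. The sources used here do not state whether reads with several places were counted. The Krt8 counts are therefore uncertain, and those of Krt18 less so, since 21 of its 1352 stretches (1.55%) matched another gene, the pseudogene Gm5200. No stretch of Vim, Nes, Gfap, Nefm, Krt7 or Krt19 matched a transcript of another gene. For Des the share was 4.76% and for Synm 3.84%, with genes annotated on the opposite strand of the same loci (Gm15179 for Des, Gm45102 and Ttc23 for Synm).

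Upstream sequences are shown for 3 type III genes that span the range of levels, Vim at the top, Des between and Gfap at the bottom. The sequences are those of RefSeq on GRCm38.p6, which gave a promoter for 8 of the 10 members (not for Krt19 and Nefm). In the 100 bases before the annotated start, both strands were searched for TATAAA, the core of the TATA box, for CCAAT, the core of the CCAAT box, and for GGGCGG, the core of the GC box. None of these can be part of another, and matches are given in capitals in the lines below. Vim is shown as 30 bases (chr2:13574267-13574296, plus strand), because its window lies in an exon of an annotated Vim transcript that starts earlier, Des as 100 bases (chr1:75360192-75360291, plus strand) and Gfap as 100 bases (chr11:102897201-102897300, minus strand).
Vim: tcctaacagtgtTATAAAagcagcgccctt
Des: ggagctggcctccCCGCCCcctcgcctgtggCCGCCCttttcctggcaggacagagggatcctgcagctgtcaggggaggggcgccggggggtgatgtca
Gfap: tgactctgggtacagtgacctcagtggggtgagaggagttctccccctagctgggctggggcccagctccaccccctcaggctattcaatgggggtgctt
TATAAA occurred in 1 of the 8 windows, that of Vim, and in 5.56% of 32851 annotated promoter windows of the same length. CCAAT occurred in 2 of 8, Vim and Synm, against 18.9% of all windows. GGGCGG occurred in 3 of 8, Des, Nes and Krt7, against 24.7%. All matches of CCAAT and GGGCGG in these windows lie on the opposite strand. None of the motifs was found in the Gfap window. As for Vim, the windows of Nes, Krt7, Krt8 and Krt18 overlapped annotated exons of their own gene. Those of Synm and Krt7 overlapped exon sequence of Gm45102 and Gm671. The Gfap window lay inside the annotated span of Gfap but outside annotated exons. These are matches of letters and were not tested against any signal at the promoters.

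The 3 libraries held 22594316 to 25261357 counts, so that 1 count is worth 0.0396 to 0.0443 CPM. A gene without counts could still have a level of 3 counts, which is 0.119 to 0.133 CPM. The libraries differed in the summed level of several marker lists. The summed level of 10 macrophage markers was 1850 CPM in clone 2, against 394 and 325 CPM in clones 1 and 3, and it was led by Lyz2 and Csf1r. That of 6 proliferation genes was lowest in clone 1, at 368 CPM, and stood at 723 and 609 CPM in clones 2 and 3. The 8 fibroblast markers summed to 88468 CPM in clone 1 and to 63040 and 66309 CPM in clones 2 and 3. All 8 were expressed, led by Col1a1 at 27713 ± 3778 CPM and Fn1 at 27279 ± 8001 CPM (SD, n = 3). The lowest had 2.03 ± 1.19 CPM, and it was not the only one of the 8 under the median of 25.7 CPM over all expressed genes. Of the 8, 6 were highest in clone 1 and 2 in clone 2, and the shares of all genes highest in these clones were not computed. The cells thus carried the fibroblast markers of their label, at widely different levels. To ask whether a gene differed between libraries by more than counting error, its 3 counts were compared with the scaled library sizes by a Pearson chi-square test, over all genes with no clone under 10 counts. This test compares libraries, not conditions. Differences of clone, culture and library preparation cannot be told apart in it. Of 12218 genes tested, 62.5% differed at an adjusted p-value (Benjamini-Hochberg) below 0.05. Of the members, 8 could be tested and all 8 differed, so that the size of each difference says more than the call.

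Vim, the type III gene of mesenchymal cells (chr2:13573927-13582826, plus strand, 9 exons), had 94147, 94492 and 101684 counts in clones 1, 2 and 3. This is 3789, 4191 and 4026 CPM, and the highest clone was only 1.11-fold above the lowest. The difference passed the chi-square test (adjusted p = 2.52e-104), because counting error is very small at this depth. Its range of log2(CPM + 1) was 0.15, below the median of 0.28 over all genes tested. It was the only one of the 8 tested members below that median, leaving 7 of 8 above it, against 50% of all genes above it. Without clone 1 or without clone 3, 6 members were above the median, and without clone 2 only 5 were. The genes behind the median were not matched to the members by level.

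Des encodes the muscle filament protein desmin (chr1:75360329-75368579, plus strand, 9 exons). It had 1778, 701 and 2438 counts in clones 1, 2 and 3, or 71.6, 31.1 and 96.5 CPM. Clone 2 was low and clone 3 was 3.10-fold above it (adjusted p = 2.05e-164, chi-square test). The range of 1.60 on the log2 scale exceeded that of 98.7% of the genes tested. Without clone 2 the fold between the remaining clones was 1.35 (adjusted p = 7.01e-21), so that most of the spread rested on this clone.
Desmin is made in striated muscle, smooth muscle and pericytes. Of 10 skeletal muscle markers, which summed to 131 to 172 CPM, 2 were expressed, Acta1 at 140 ± 24.8 CPM and Tnni1 at 3.55 ± 0.665 CPM (SD, n = 3), while Ckm and Myf5 had no count and Myod1 had 0, 1 and 4 counts in clones 1, 2 and 3. All 10 smooth muscle and pericyte markers were expressed, and Acta2 at 6855 ± 222 CPM and Tagln at 2768 ± 104 CPM were the highest. Their summed level was similar in the clones, between 11171 and 11518 CPM. Of the 10 genes, 6 were lowest in clone 2, as Des was, 2 in clone 1 (Acta2 and Cnn1) and 2 in clone 3 (Tagln and Kcnj8). Highest in clone 3 were 3 of them. Over all genes tested, 34.8% were lowest in clone 2 and 27.2% were highest in clone 3. The widest spread in the list, picked after the values were seen, was that of the pericyte gene Rgs5, with 283, 26 and 323 counts in clones 1, 2 and 3. Of the skeletal muscle list 8 genes had a count, and 6 of them were highest in clone 3, as Des was, but 5 of these 6 had few counts, with at most 47 in any clone. Acta1, which made up most of the summed level of that list, went the other way, with 130, 169 and 122 CPM in clones 1, 2 and 3. In a bulk culture, fewer cells of a type and less RNA per cell cannot be told apart, and the part of these cells, or of the macrophage markers of clone 2, in the level of Des was not tested.

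Gfap, the astrocyte gene (chr11:102887336-102900912, minus strand, 9 exons), had 1, 0 and 1 counts in clones 1, 2 and 3, which is under the level of 3 counts in every clone. At this depth it was not detectable above that limit. Of the 8 glial markers 1 was expressed. It was not Slc1a2, a glutamate transporter gene of astrocytes, which had 0.713 ± 0.266 CPM (SD, n = 3). Olig2 had no count in any clone, and the whole list summed to 3.33 to 3.70 CPM.

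Nes encodes nestin, a long type IV protein known from neural and muscle progenitors (chr3:87971078-87980451, plus strand, 4 exons). It had 21741, 12709 and 20744 counts in clones 1, 2 and 3, or 875, 564 and 821 CPM. As for Des, clone 2 was lowest, but clone 1, the highest, exceeded it by a smaller fold of 1.55 (chi-square test, adjusted p-value too small to be written as a number). Without clone 2 it was 1.06 (adjusted p = 1.65e-09). The high level of Nes was not accompanied by the defining genes of neural progenitors. Of 7 such markers only Msi1 was expressed, at 5.62 ± 1.45 CPM, Fabp7 had 1.22 ± 0.219 CPM (SD, n = 3), Sox2 had 3, 2 and 7 counts, and Sox1, Neurog2 and Hes5 had no count in any clone. The whole list summed to 5.45 to 7.85 CPM.

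Synm encodes synemin, which joins desmin and vimentin filaments to other structures of the cell (chr7:67730160-67759742, minus strand, 4 exons). It had 83, 108 and 126 counts in clones 1, 2 and 3, or 3.34, 4.79 and 4.99 CPM. Clone 1 was lowest, by 1.49-fold (adjusted p = 0.0183, chi-square test), and without this clone the difference did not pass the test (adjusted p = 0.855).
Nefm, the middle neurofilament chain (chr14:68082590-68124846, minus strand, 3 exons), had 22, 12 and 44 counts in the same clones. Exact Poisson intervals of these counts (95%) were 13.8 to 33.3, 6.20 to 21 and 32.0 to 59.1, so that clone 3 lay above clone 2 by more than counting error (3.27-fold over the clones, adjusted p = 0.000396, chi-square test). It reached 1 CPM only in clone 3, and without this clone the difference did not pass the test (adjusted p = 0.226). The partner chains Nefl and Nefh had no count in any clone. Exons of Nefl on the opposite strand cover 19.2% of the annotated exon length of Nefm, and the strand setting of the authors' counting is not given. Of 8 neuronal markers 3 were expressed, with Tubb3 at 73.1 ± 6.35 CPM and Map2 at 6.42 ± 0.890 CPM the highest, and Rbfox3 had no count. The list summed to 81.6 to 90.3 CPM.

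Among the keratins, the type I gene Krt19 (chr11:100140810-100148665, minus strand, 6 exons), which is known from ducts and simple epithelia, was the most abundant. It had 433, 842 and 575 counts in clones 1, 2 and 3, or 17.4, 37.3 and 22.8 CPM. Clone 2 was highest, the reverse of Des and Nes, and clone 1 was 2.14-fold lower (adjusted p = 7.09e-42, chi-square test). Without clone 2 the fold was 1.31 (adjusted p = 0.000101).
The other type I gene, Krt18 (chr15:102028180-102032027, plus strand, 7 exons), had 69, 67 and 134 counts, or 2.78, 2.97 and 5.31 CPM. Clone 3 stood apart from the others, at 1.91-fold above the lowest (adjusted p = 5.78e-06, chi-square test), and without it the remaining clones did not pass the test (adjusted p = 0.764).
Of the type II genes, Krt7 (chr15:101411043-101430313, plus strand, 9 exons) had 108, 71 and 117 counts, or 4.35, 3.15 and 4.63 CPM. Its difference between clones was close to the threshold (adjusted p = 0.0459, chi-square test) and did not pass without clone 2 (adjusted p = 0.727) or without clone 3 (adjusted p = 0.0623).
Krt8 had 6, 9 and 28 counts, with exact Poisson intervals (95%) of 2.20 to 13.1, 4.12 to 17.1 and 18.6 to 40.5. It had too few counts for the main test. When all genes with a summed count of at least 10 were included, it differed between clones (adjusted p = 0.000348 over 13737 genes, chi-square test), with clone 3 highest. Its mean of 0.583 CPM fell to 0.317 CPM without this clone.

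**Figure D2:**
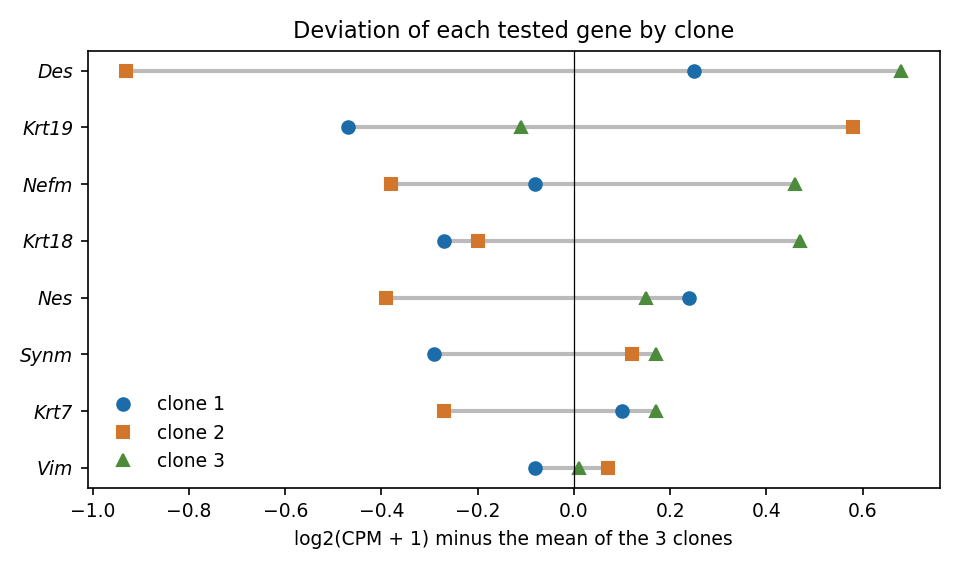
For each of the 8 tested genes, log2(CPM + 1) of each clone minus the mean of the 3 clones, ordered by range with grey lines joining the lowest and highest clone. Clone 2 is lowest for Des, Nefm, Nes and Krt7 and highest for Krt19 and Vim, and Vim has the narrowest range, 0.15.

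The clones did not order the members in 1 way. Of the 8 tested members, 4 were lowest in clone 2 (Des, Nes, Nefm and Krt7), against 34.8% of all genes tested, and 5 were highest in clone 3 (Des, Synm, Nefm, Krt7 and Krt18), against 27.2%. Krt8, which was not tested, was also highest in clone 3, so that both genes of the Krt8 and Krt18 pair had their highest level in that clone. When libraries were scaled by DESeq2 or by their totals, the highest and lowest clones of these genes were the same, and the exception among all 10 was Gfap, whose single counts in clones 1 and 3 changed order with total counts.

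Krt8 and Krt18 are neighbours, with 23.7 kb between them and opposite directions of transcription. Their proteins pair with each other, and their counts were unequal. Of the Krt8 and Krt18 counts together, Krt8 made up 8.0% in clone 1 (95% Wilson interval 3.72 to 16.4), while clone 2 had 11.8% (6.36 to 21) and clone 3 had 17.3% (12.2 to 23.8). On average Krt8 made up 12.4% ± 4.66 (SD, n = 3). Such intervals, which reflect counting error alone, overlap between clones, and the difference in the share was not tested. Per kb of each gene's main transcript, the one with the longest coding sequence (1958 nt for Krt8 and 1437 nt for Krt18), the share was 9.42% ± 3.67. Per kb of 86-nt stretches not shared with another gene, an alternative chosen after seeing the data because of the pseudogene shown above, it was 14.5% ± 5.32 (SD, n = 3). By each of these measures Krt18 lay above Krt8 in the mean of the clones.
Type II genes were also the smaller part of the keratin counts as a whole. Krt7 and Krt8, the type II genes among the members, held 8.09% of the counts of the 4 keratins in clone 2 (95% Wilson interval 6.55 to 9.95). Clone 1 had 18.5% (15.6 to 21.8) and clone 3 had 17.0% (14.6 to 19.6). Clone 2 lay below the others by more than counting error, and it was the clone with the most Krt19. Krt19 took 85.1% (82.8 to 87.2) of the 4 keratins' counts there, while clone 1 had 70.3% (66.6 to 73.8) and clone 3 had 67.3% (64.1 to 70.4). By counts, the small type II share of the 4 keratins rested on Krt19. Krt7 and Krt8 together had 114, 80 and 145 counts in clones 1, 2 and 3, above the 69, 67 and 134 of Krt18. Per kb of transcript, the mean of Krt18 (2.56 CPM) lay above those of Krt7 (0.987) and Krt8 (0.298). Over all 51 keratin genes found in the table, a sum chosen after the first values were seen, type II genes held 16% ± 4.69 of keratin counts (SD, n = 3) and never more than 18.8%. Per kb of transcript, the type II share of the 4 keratins was 6.85% ± 2.78 (SD, n = 3).

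**Figure D3:**
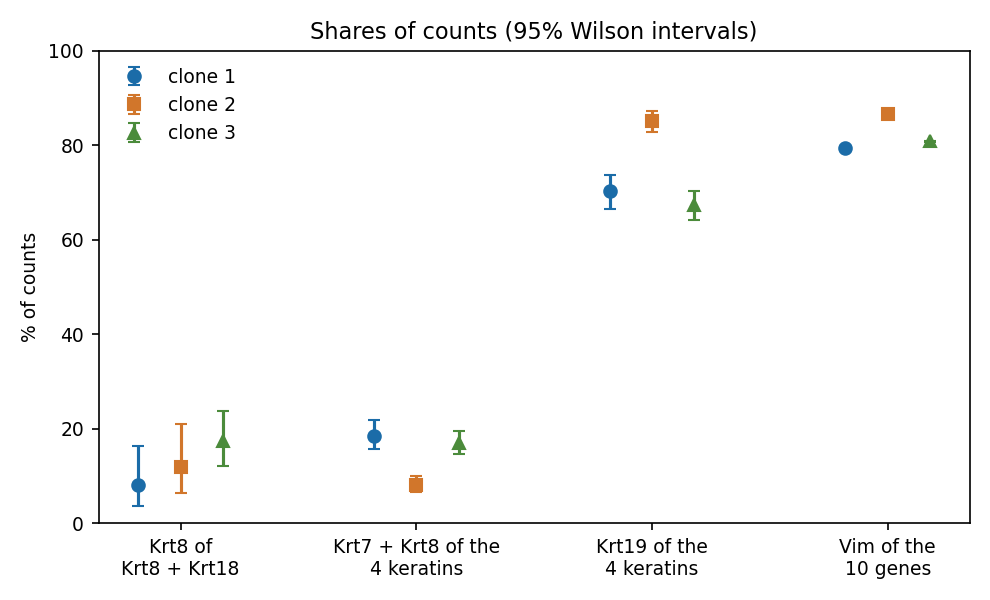
Share of counts in percent, by clone, with 95% Wilson intervals that cover counting error only, for Krt8 among Krt8 and Krt18, for Krt7 and Krt8 and for Krt19 among the 4 keratins, and for Vim among the 10 genes. Krt8 stays at or below 17.3% in every clone, and clone 2 has the lowest type II share (8.09%) and the highest Krt19 share (85.1%).

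Keratins mark epithelium, yet the defining epithelial genes were at or near 0 in these cultures. Not one of 9 epithelial markers was expressed in every clone. Epcam had 5, 1 and 3 counts and Cdh1, the E-cadherin gene, 3, 4 and 5 counts in clones 1, 2 and 3, while Esrp1 and Ovol1 had no count. The highest was Cldn4 with 65, 14 and 82 counts, followed by Cdh1. The summed level of the list was 1.15 to 3.60 CPM, most of it from Cldn4, and the other 8 genes together had 0.362, 0.532 and 0.356 CPM in clones 1, 2 and 3.
Mesothelium, the lining of body cavities, also makes keratins 7, 8, 18 and 19. The table held 7 mesothelial markers, and 3 were expressed. Msln, the mesothelin gene, had 149, 120 and 199 counts, Upk1b had 84, 104 and 87 counts and Upk3b had 40, 64 and 67 counts. The summed level of this list was 13.1, 15.7 and 17.0 CPM in clones 1, 2 and 3, with no marker at 0 in every clone. By CPM, 5 of the 7 genes were highest in clone 2, as Krt19 was, several of them with few counts. The other 2, Msln among them, were highest in clone 3, as Krt7, Krt8 and Krt18 were (27.2% of all genes tested). The share of all genes highest in clone 2 was not computed, so the count for that clone has nothing to be set against. The part of this list in the keratin levels was not tested. Of 5 endothelial markers only Kdr was expressed, with 163, 214 and 314 counts, and Pecam1 had 6, 15 and 6 counts, with Tie1 at 0 and a summed level of 7.33 to 13.1 CPM.

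**Figure D4:**
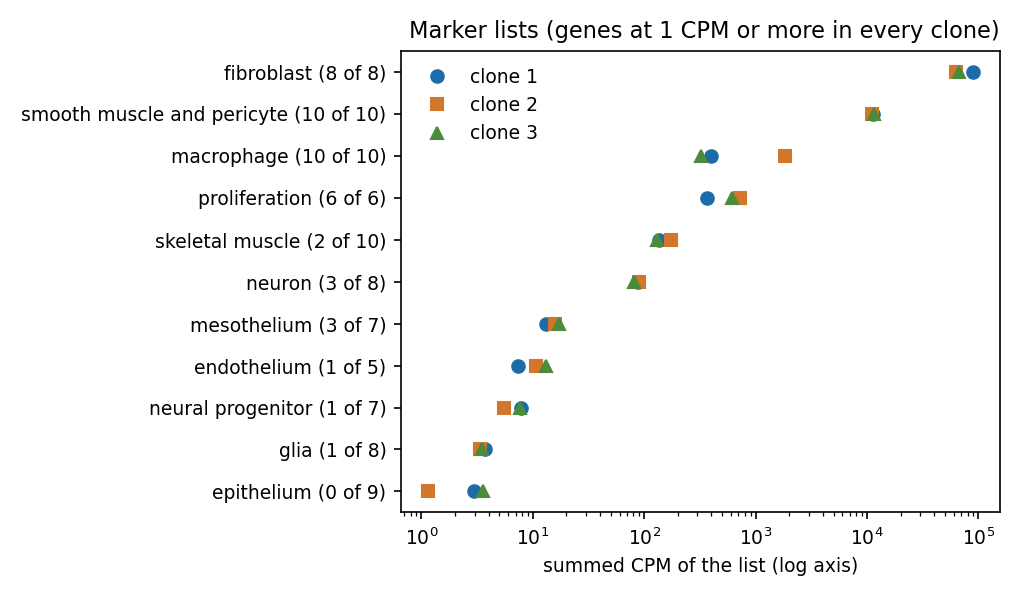
Summed CPM of each marker list in each clone on a log axis, with the number of genes at 1 CPM or more in every clone of the number found in the table. The epithelial list is the lowest by the mean of the clones, at 1.15 to 3.60 CPM with 0 of 9 genes expressed, and the macrophage list is highest in clone 2, at 1850 CPM.

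Levels of different genes can be set side by side only per length. Per kb of the main transcript, as defined above, the order by the mean of the clones was Vim, Nes, Des, Krt19, Krt18, Krt7, Synm, Nefm, Krt8 and Gfap. Vim had 1825 ± 92.0 CPM per kb and ranked 16th of 19358 genes with such a length, and Nes had 123 ± 27.2 CPM per kb (SD, n = 3). Vim stood 12.1-fold, 20.8-fold and 13.7-fold above Nes in clones 1, 2 and 3. Des (21.9 ± 10.9 CPM per kb) and Krt19 (16.4 ± 6.54 CPM per kb) changed places between clones, since Krt19 was above Des in clone 2 and below it in the other clones.
Krt18 followed at 2.56 ± 0.979 CPM per kb, Krt7 at 0.987 ± 0.192 and Synm at 0.559 ± 0.115 (SD, n = 3). On this length Krt18 was above Krt7, and Krt7 above Synm, without overlap between the clones. Synm was above Nefm within each clone but their ranges overlapped, and Nefm and Krt8, at 0.316 ± 0.187 and 0.298 ± 0.236 CPM per kb, were not separated. With the union of all annotated exons as length, the order of Nefm and Krt8 by the mean was exchanged and the rest of the order was the same, but Krt7 (0.574 ± 0.112 CPM per kb) and Synm (0.551 ± 0.113) were then not separated, since Krt7 was below Synm in clone 2. The level of Vim depends most on this choice among the abundant members. Its annotated exons cover 4743 bp and its coding transcript 2193 nt, so that the value was 844 ± 42.5 CPM per kb with the former.

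**Figure D5:**
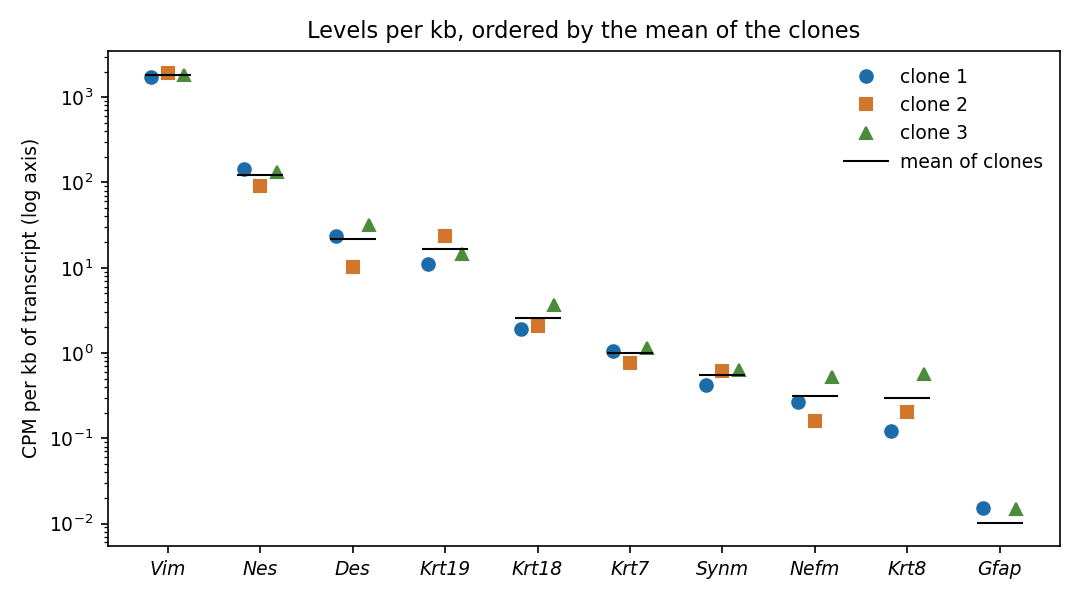
CPM per kb of the main transcript (the one with the longest coding sequence), on a log axis, for each clone and as the mean of the clones (black line), ordered by the mean. The Gfap value of clone 2 is 0 and is not drawn, and the clones of Des and Krt19 overlap, as do those of Nefm and Krt8.

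Most other cytoplasmic intermediate filament genes were silent or close to it. Of 54 such genes listed, 53 were found in the table, 31 had no count in any clone, and 43 had at most 3 counts in every clone. Only 2 (3.77%, against 52.2% of all genes) were expressed, both keratins. The type I gene Krt20, known from intestinal and bladder epithelium, had 177, 150 and 151 counts in clones 1, 2 and 3, or 6.58 ± 0.576 CPM, and the type II gene Krt80 had 42, 38 and 51 counts, or 1.80 ± 0.191 CPM (SD, n = 3). Per kb, Krt20 had 3.42 CPM, beside 2.56 CPM for Krt18. Of this list 3 genes could be tested (Krt10, Krt20 and Krt80), and 0 of them differed between clones by the chi-square test after adjustment, 0 at an unadjusted p-value below 0.05 and 0 by the likelihood-ratio G test. The type III gene Prph, of peripheral neurons, had 8, 1 and 7 counts. With the other intermediate filament genes added to the total, the share of Vim changed by less than its SD.

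Filaments are tied to junctions and to other parts of the cytoskeleton by plakins and armadillo proteins. The table held 13 such linkers, of which 9 were expressed, against 52.2% of all genes, and 9 of the 11 that could be tested differed between clones, against 62.5% of all genes tested. Plec, the gene of plectin, which links vimentin to actin and to focal adhesions, had 1300 ± 84.7 CPM, Macf1 351 ± 31.2 CPM, Dst 290 ± 33.5 CPM, Jup 148 ± 24.4 CPM, Pkp2 56.4 ± 2.97 CPM and Syne3, the nesprin that binds plectin, 13.3 ± 4.34 CPM (SD, n = 3). Dsp, the desmoplakin gene that anchors keratins at desmosomes, had 74, 13 and 32 counts and was under 1 CPM in clone 2.
All 7 genes of chaperones and turnover were expressed, and 5 of the 7 differed between clones, which is close to the 62.5% of all genes tested. Hspb1 and Cryab, small heat shock proteins that bind filaments, had 195 ± 9.27 and 88.6 ± 13.3 CPM, and Bag3 had 100 ± 5.07 CPM (SD, n = 3).
All 8 genes of kinases that phosphorylate filament proteins were expressed, and all 8 differed, again against 62.5% of all genes tested. Rock2 had 285 ± 9.19 CPM and Pak2 93.0 ± 9.67 CPM. The mitotic kinase Cdk1, which acts on vimentin and nestin, had 73.2 ± 23 CPM, and its counts were 1231, 2154 and 1882 in clones 1, 2 and 3. Cdk1, Aurkb and Plk1 are also in the proliferation list. Like that list they were lowest in clone 1, where Vim was lowest by a much smaller fold and Nes was highest.

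Genes with the most similar levels were sought by the largest difference in log2(CPM + 1) over the 3 clones, and the nearest 3 are named for each expressed member. For Vim these were Actb, Serpinh1 and Col4a2, within 0.286. For Nes they were Igf2r, Picalm and Thbs2, within 0.190. Des had no near neighbour, and the nearest, Irgm1, Bdnf and Gcnt4, differed by 0.405 to 0.520. Krt19 was nearest to Lrp2, Hat1 and Fam64a, within 0.204, and Krt18 to Pcyt1b, Sfmbt2 and Fan1, within 0.227. Krt7 was nearest to Zfp286, Syn1 and Ppp1r14a, within 0.064, and Synm to Nfatc2ip, Rnf141 and Pdp2, within 0.065. With 3 libraries many genes share a level, and CPM are not divided by length, so these neighbours describe counts only.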

How the data were processed

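RNA-seq of 3 WT MEF clones was used, 1 library per clone. As the methods describe, the authors ran FastQC and aligned the reads with TopHat 2.0.0 on top of Bowtie 0.12.7 (with Samtools 0.1.16). Up to 2 mismatches and several hits per read were allowed. They deposited raw counts per gene made with HTSeq. The methods name mm10, while the submitters' processing notes list mm9. The deposited counts carry no coordinates, and all positions given here are those of GENCODE M21 on GRCm38. HTSeq version, annotation and strand setting are not given in the sources used here.

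CPM were computed with TMM factors (edgeR 4.0.16, R 4.3.3). The 3 counts of each gene were compared by Pearson's chi-square test (2 degrees of freedom) across all 12218 genes with no clone under 10 counts, with Benjamini-Hochberg adjustment. Simulated counts served only to check the calculation. They had counting error and known changes but no further variation between clones, unlike the real libraries. No pair of clones agreed within counting noise, since 31.7% to 53.0% of genes differed between 2 clones, and each counted as 1 replicate. Shares have 95% Wilson intervals and low counts exact Poisson intervals. Lengths, exons and stretches of 86 nt came from GENCODE M21 transcripts, compared on both strands. Genes absent under their symbol were searched under older symbols of RefSeq, and Krt85, Eppk1, Muc16 and Adgre1 were not found.

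The members, the gene lists and the tests were chosen with earlier results of these data known. Named genes were all members, up to the 6 highest expressed genes of each pathway list, the 2 highest genes of each marker list with its markers at 0, and the 3 nearest genes by level. Genes named outside this rule were picked after their values were seen (Rgs5, Cnn1, Kcnj8, Myod1, Sox2, Epcam, Upk3b, Dsp, Prph, Krt10, Nefl, Nefh and Aurkb). The value of 1 listed marker is not reported here. Alternatives were DESeq2 1.42.0 size factors, total counts, other thresholds and pseudocounts, lengths and leaving out each clone. Other steps were run in Python 3.11.15 (scipy 1.17.1, numpy 2.4.6, pandas 2.3.3).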

Additional observations from a re-analysis of the deposited data

How the results depend on the processing

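The count of 8 members that differed between clones fell to 3 (Des, Nefm and Krt19) when at least a 2-fold difference between the highest and the lowest clone was also required, a rule that 7.93% of all genes tested passed. Leaving out 1 clone at a time gave 5 to 7 members, and 5 was reached without clone 3, where Nefm, Krt7 and Krt18 no longer passed, while 53.0% of all genes tested differed. Without clone 1 Synm did not pass, and without clone 2 Krt7 did not, with 31.7% and 45.3% of all genes differing. The Vim share of the members' counts, 82.3%, became 91.6% per kb of the main transcript, as the Nes transcript is longer than that of Vim, and 84.6% per kb of all exons. The number of members expressed was 7 to 9 under all thresholds, scalings and sets of clones tried, and the Krt8 share of Krt8 and Krt18 counts was 9.42% to 14.6%. The mean CPM of each member moved by less than its SD with other scalings. Among 3 clones, leaving out 1 cannot by itself move a mean by as much as its SD, so that comparison decides nothing. The mean CPM of Krt8 was 0.583 with all clones and 0.317 without clone 3. No paired analysis was possible because there is only 1 group. Depth limits what can be said of Gfap, Krt8 and Nefm, and the pseudogene of Krt8 adds an uncertainty that the counts do not show.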
